A study of Mus musculus with 12 samples.

Results

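Promyelocytes are the stage of granulocyte development in which the primary (azurophil) granules are filled, and the barcodes described here were chosen for the transcripts of 3 proteins of those granules. A cell barcode was taken when its library passed at least 1000 unique molecular identifiers (UMIs) for it with at most 15% of them on mitochondrial genes, when Elane, Mpo and Prtn3 together had at least 10 UMIs, when Camp and Ngp made up under 1% of its UMIs, and when S100a8 and S100a9 made up under 5%. Of 184493 passing barcodes in 9 mouse liver libraries, 5785 met the rule. They numbered 456, 859, 548, 372 and 532 in the libraries of embryonic stage E16.5 and 1138, 710, 643 and 527 in those of postnatal day 3 (P3). The members were chosen by the measured UMIs of these 7 genes, whose levels are therefore a description and support nothing here.

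The study profiled dissociated whole livers from wild-type, heterozygous and homozygous mice for the Nodder mutation in Jag1, the gene of a Notch ligand, with droplet-based single-cell RNA sequencing. Every cell of an animal carries the allele, so its effects on promyelocytes and on the liver around them cannot be told apart. The groups of the labels were Jag1+/+, Jag1Ndr/+ and Jag1Ndr/Ndr, each at E16.5 and at P3 with 2 individuals, from crosses between heterozygotes. Per the labels' protocols, TrypLE was added to the digestion at E16.5 only, dead cells were removed on magnetic beads, and homozygous pups at P3 were recognised by jaundice.

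At E16.5 the libraries used were Jag1+/+ replicate 1, Jag1Ndr/+ replicate 1, Jag1Ndr/Ndr replicates 1 and 2, and 1 library deposited under both the Jag1+/+ and the Jag1Ndr/+ label, called the shared library. The 2 deposited copies of it were equal in all 23166 barcodes, so it was counted once and only as not homozygous. At P3, library A (labelled Jag1+/+ replicate 1) had 68.4% of its barcodes in the matrix labelled Jag1Ndr/Ndr replicate 1, and library B (labelled Jag1+/+ replicate 2) held all 15754 barcodes of another matrix labelled Jag1Ndr/+ and most of its own in one labelled Jag1Ndr/Ndr, so the genotype of both is unclear. Library C was the part of Jag1Ndr/Ndr replicate 1 without the barcodes of library A, and library D was Jag1Ndr/+ replicate 1. Genotypes were therefore compared at E16.5 only. Among the promyelocytes, 3 pairs of libraries shared 1 barcode each and the other pairs shared 0.

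Neutrophil granulocytes arise from progenitors that first pass through the promyelocyte stage, in which serine proteases and myeloperoxidase are made in bulk in the endoplasmic reticulum and packed into primary granules. The next stage, the myelocyte, switches to secondary granule proteins such as lactoferrin, lipocalin 2 and the cathelicidin Camp. C/EBP alpha, PU.1 (Spi1), Myb and Runx1 are known to start the primary granule genes, Gfi1 and C/EBP epsilon to carry the cells on towards neutrophils, and Irf8 to favour monocytes. Until the bone marrow takes over, the fetal and newborn liver is the main site of this process.

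Elane (ENSMUSG00000020125), the neutrophil elastase gene, lies at chr10:79886247-79888215 on the plus strand, and Prtn3 (ENSMUSG00000057729), the proteinase 3 gene, beside it at chr10:79874476-79883174 on the same strand. Mpo (ENSMUSG00000009350), which encodes myeloperoxidase, lies at chr11:87793581-87804413 on the plus strand, and Ctsg (ENSMUSG00000040314), the cathepsin G gene, at chr14:56099881-56102574 on the minus strand (GENCODE M21 on GRCm38). Because the 4 genes mark these cells together, the bases before their RefSeq start (GRCm38.p6) are shown up to the first base of any annotated exon, written 5′ to 3′ on the gene's strand. Capitals mark the letters GAGGAA, which contain the core that Ets factors such as PU.1 bind, and AACNG, the core known for Myb. TTNNGNAA, the outline of a C/EBP site, was searched as well, all 3 on both strands. The Elane window is chr10:79886062-79886246, that of Prtn3 chr10:79879417-79879613 (inside the longest Prtn3 gene model), that of Mpo chr11:87793534-87793580 and that of Ctsg chr14:56102575-56102824.
Elane: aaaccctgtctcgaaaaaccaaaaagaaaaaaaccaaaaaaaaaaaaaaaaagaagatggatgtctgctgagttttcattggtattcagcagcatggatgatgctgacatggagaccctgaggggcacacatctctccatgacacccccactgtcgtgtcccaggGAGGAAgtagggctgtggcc
Prtn3: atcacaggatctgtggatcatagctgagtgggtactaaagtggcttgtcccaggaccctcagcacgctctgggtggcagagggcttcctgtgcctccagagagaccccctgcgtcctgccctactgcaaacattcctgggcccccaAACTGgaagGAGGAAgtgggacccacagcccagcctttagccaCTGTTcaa
Mpo: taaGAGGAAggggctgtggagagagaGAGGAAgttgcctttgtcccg
Ctsg: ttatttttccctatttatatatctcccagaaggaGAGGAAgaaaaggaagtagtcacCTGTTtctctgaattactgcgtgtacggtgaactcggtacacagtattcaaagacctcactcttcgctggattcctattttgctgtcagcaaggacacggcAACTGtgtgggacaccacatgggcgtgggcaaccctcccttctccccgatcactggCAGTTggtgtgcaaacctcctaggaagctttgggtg

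GAGGAA was present in the windows of all 4 genes on the gene's own strand, 85 bases before the RefSeq start of Elane (first base of the match), 95 before that of Prtn3, 216 before that of Ctsg, and 247 and 224 before that of Mpo. Among 32841 RefSeq promoter windows cut to the same lengths, it was found in 17.6% at the 185 bases shown for Elane, 18.6% at the 197 of Prtn3, 4.51% at the 47 of Mpo and 23.3% at the 250 of Ctsg. AACNG occurred 2 times in the Prtn3 window, 3 times in that of Ctsg and in neither of the others. It was in 66.2% of all windows of 197 bases, 74.2% of those of 250, 63.9% of 185 and 22.7% of 47. No TTNNGNAA was among these letters, while 36.9% of all windows of 250 bases held it, 30.7% of 185, 32% of 197 and 9% of 47. The windows of Elane, Prtn3 and Mpo end 66, 54 and 204 bases before the RefSeq start, and the letters after that were not searched. The capitals did not overlap between motifs. A match is a description of the letters and not a binding site.

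Sequencing depth per library ranged from 75745209 to 258642858 UMIs, and the promyelocytes had medians of 13347 to 21355 UMIs at E16.5 and 8458 to 17776 at P3. Haemoglobin transcripts made up a median of 4.38 to 11.3% of their UMIs at E16.5 and 0.231 to 0.439% at P3. Scrublet marked 0.376 to 13.5% of them as doublets. Jag1 itself, whose allele is a missense change that a transcript count cannot show, was at 0.787 to 1.89 CPM (UMIs per 1000000) in the E16.5 promyelocytes and 0.261 to 0.495 at P3, so its level checks no label. CPM here are UMIs of a gene summed over the promyelocytes of a library, per 1000000 UMIs on the 22519 genes listed at both stages. They compare a gene between samples, and a 3′ tag count per gene does not depend on transcript length in the way a read count does.

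Ctsg, the marker that the rule did not use, was present with at least 1 UMI in 76.0 to 85.7% of promyelocytes of each library. In barcodes with at least 50% haemoglobin UMIs, which should lack it, the share was 1.46 to 8.69%, at medians of 2427 to 10191 UMIs. Ctsg stood at 1241, 1197, 1667, 1322 and 1695 CPM in the E16.5 libraries (in the order Jag1+/+ replicate 1, shared, Jag1Ndr/+ replicate 1, Jag1Ndr/Ndr replicates 1 and 2, kept throughout) and at 1735, 1858, 1500 and 1637 CPM in libraries A to D. All 9 values lay within a narrow band, and the stages overlapped. Elane was at 1542 to 1966 CPM at E16.5 and 3323 to 4884 at P3, Mpo at 2533 to 3652 and 3882 to 5618, and Prtn3 at 2884 to 3936 and 5023 to 6593. These 3 gate genes were higher in every P3 library than in any E16.5 library, which is given without a test.

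The gate's edges were not sharp. Barcodes with 8 to 9 UMIs of the 3 genes, just outside, numbered 346 and had 79 CPM of Elane and 96.6 of Ctsg, against 109 and 93.6 in the 262 barcodes with 10 to 11 UMIs just inside. At the S100 limit, 264 barcodes at 4 to 5% had 6270 CPM of Elane and 1920 of Ctsg, and 203 at 5 to 6% had 6640 and 1970. Past that limit, 998 barcodes with at least 10 UMIs and little Camp and Ngp had 6340 CPM of Elane. At the Camp and Ngp limit, Elane was 3040 CPM in 89 barcodes just inside and 1870 in 49 just outside.

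The members differed among themselves in how much of their RNA was Elane, Mpo and Prtn3. The 3 genes made up under 0.2% of UMIs in 1088 barcodes, 0.2 to 0.5% in 1072, 0.5 to 1% in 924, 1 to 2% in 1365 and at least 2% in 1336. All genes below were summed per library within these 5 bins, and every direction given was seen in 9 of 9 libraries between the lowest and the highest bin unless another number is given. The cells were sorted on the gate genes, so the values are a description with no test. Directions were not counted over all genes, so the counts of list members below have no background share beside them.

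Of the 15 primary granule genes outside the gate, 10 were higher in the top bin in 9 of 9 libraries. Ctsc, which encodes the protease that activates the granule serine proteases, went the other way (322 and 61.4 CPM, higher in 0 of 9), as did the lysozyme gene Lyz2 (2545 and 184, 0 of 9), while Man2b1 (1 of 9), Gusb (3 of 9) and Hexa (6 of 9) were mixed. The median over libraries went from 157 CPM in the lowest bin to 3828 in the highest for Ctsg, and from 16.4 to 1785 for Ms4a3, a membrane protein gene known from granulocyte and monocyte progenitors. Prss57, another serine protease of the granule, had 8.04 and 294 CPM. Serglycin (Srgn), the proteoglycan that holds proteases in granules, had 500 and 3152, and the protease inhibitor gene Serpinb1a had 92.3 and 750. The order was graded for Ctsg, Ms4a3, Prss57, Srgn and Serpinb1a, each bin standing above the one before it. The endoplasmic reticulum chaperone Hspa5 had 436 and 984 CPM, a shallower slope.

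Among the transcription factors, Cebpe had 17.4 CPM in the lowest and 198 in the highest bin, and Gfi1 3.44 and 67. Myb had 160 and 279. Irf8 went the other way, with 159 CPM in the lowest bin, 250 in the next and 59.6 in the highest. Klf4, a monocyte factor, had 116 and 3.49, Runx1 141 and 52, and the stem cell factor Meis1 35.3 and 1.39. Cebpa was higher at the top in only 4 of 9 libraries and Spi1 in 5 of 9, so neither had a direction.

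Of 36 receptor genes, 17 were higher in the top bin in 0 of 9 libraries, 6 in all 9 and 13 in some. Csf1r, the receptor for the monocyte growth factor, had 88.4 CPM in the lowest and 17.8 in the highest bin, the chemokine receptor gene Ccr2 207 and 4.16, and the progenitor gene Cd34 155 and 11.9. Flt3 went from 35.4 to 0. Kit, which promyelocytes keep for a time, was higher at the top in 8 of 9 libraries (61.6 and 88.6 CPM), as were Csf2ra (49.6 and 74) and Fcgr3 (64.5 and 114), and the inhibitory Fc receptor gene Fcgr2b (20.3 and 41.9) in 9 of 9. The Notch receptor genes were at 43.5 and 15.3 CPM (Notch1) and 46.9 and 8.88 (Notch2). Mki67, a gene of dividing cells, had 661 and 223 CPM, and of the 24 G2/M genes, 20 were higher in the top bin in 0 of 9 libraries and 0 in all of them. S phase genes were mixed, with 5 of 24 higher at the top in 0 of 9 libraries and the other 19 in some of them. Without the share over all genes, the receptor and cell cycle counts cannot be read as a trait of these lists.

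**Figure D1:**
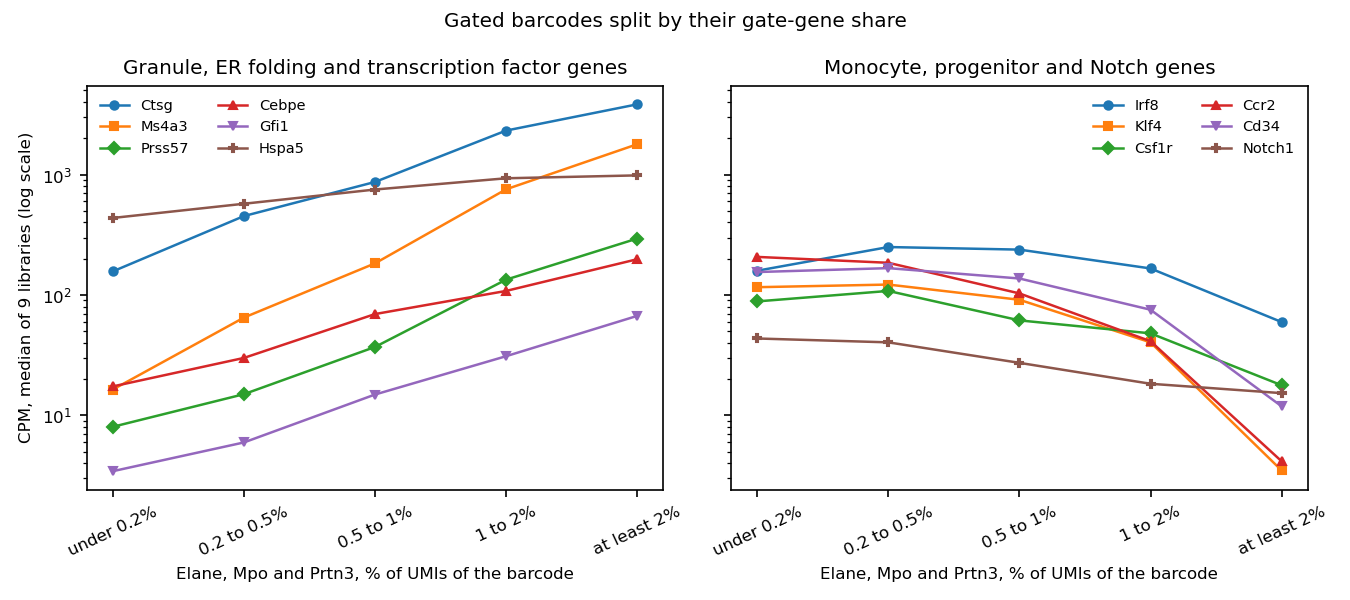
Median CPM over 9 libraries (vertical axis, log scale) of 12 genes in the promyelocytes, split into 5 bins by the share of Elane, Mpo and Prtn3 in a barcode's UMIs (horizontal axis). Each line is a gene; Ctsg goes from 157 to 3828 CPM, Cd34 from 155 to 11.9.

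Markers of other cells were more frequent in the barcodes with little of the gate genes, and are given by stage because P3 gave 1028 of the 1336 top-bin barcodes and 466 of the 1088 in the lowest bin. At least 3 UMIs of Csf1r, Ccr2 and Ly86 together were present in 49.5% of barcodes of the lowest bin and 4.55% of the highest at E16.5, and in 72.5% and 9.73% at P3. For the progenitor genes Kit, Cd34 and Flt3 the shares were 63.8% and 18.2%, then 41.2% and 18.7%. For the basophil and mast cell genes Mcpt8, Prss34 and Cpa3 they were 17% and 0.649%, then 9.44% and 1.75%, and for the B lineage genes Cd79a, Cd79b and Ebf1 14% and 5.19%, then 22.7% and 16.6%. Each of these 4 shares was lower in the top bin in 9 of 9 libraries. Hepatocyte transcripts (Alb, Apoa1 and Ttr) had 88.4% and 69.5%, then 13.9% and 8.17%, lower in 8 of 9, while in CPM Alb and Apoa1 were higher in the top bin in 2 of 9 libraries and Ttr in 1. Such shares also move with depth, and at E16.5 the median UMIs per barcode were 16077 to 24217 in the lowest bin and 7702 to 18388.5 in the highest. Among all promyelocytes, 37.9% carried the monocyte and 37.5% the progenitor genes at this level. Whether such barcodes are bipotent cells, cells of other lineages, mixed droplets or free RNA was not tested. Barcodes with 10 to 11 gate-gene UMIs had 205 CPM of Ccr2 and 2.7 of Gfi1, beside 204 and 2.98 in those with 8 to 9. The name promyelocyte is used here for every barcode that met the rule, also in the lowest bin.

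The 2 stages differed in this composition. The top bin held 9.66 to 11.8% of the promyelocytes of an E16.5 library and 30.8 to 37.2% at P3, and the lowest bin held 20.1 to 26.6% and 8.16 to 18.7%. For that reason, each comparison of the stages below was also made among barcodes in which the gate genes reached 0.5% of UMIs. The main gate asks for 10 UMIs at any depth, so a deeper barcode can pass it with a smaller share. At P3 the lowest bin held 8.16% in library D (median 8458 UMIs) and 18.7% in library A (17776). At E16.5 it held 20.1% in the shared library (13347) and 26.6% in Jag1Ndr/Ndr replicate 1 (21355). The part of depth in the stage difference was not tested.

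Neighbouring populations of the same libraries were set beside the promyelocytes to place them. These were 18638 barcodes with at least 1% of UMIs on Camp and Ngp, the next granulocyte stage, 608 barcodes with a UMI of both Kit and Cd34 and few gate-gene UMIs, and 4017 monocyte barcodes with at least 3 UMIs of Csf1r, Ccr2 and Ly86. Since the gate separates them by construction, the values describe and do not test.

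Ctsg was among the genes that set promyelocytes apart from all 3. Its median was 1637 CPM against 68.6 in Camp and Ngp-rich barcodes, 5.74 in Kit and Cd34 barcodes and 11.9 in monocyte barcodes. Ms4a3 had 622, 181, 3.38 and 4.03 CPM in the same order, Prss57 85.2, 35.3, 6.88 and 2.83, and Srgn 1368, 195, 439 and 367. Cst7, a cathepsin inhibitor gene, had 90.8 against 10.6, 10.7 and 6.80. All of these were higher in promyelocytes in 9 of 9 libraries against each neighbour. The 998 barcodes past the S100 limit described above were not among these neighbours. Pooled over libraries, they had 1360 CPM of Ms4a3, 294 of Prss57 and 1450 of Ctsg. Ms4a3 and Prss57 were thus higher there than in the promyelocytes.

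Of the 15 primary granule genes outside the gate, 13 had a positive median log2 ratio (20 CPM added to both sides) against the Camp and Ngp-rich barcodes, with a median of 1.37 beside 0.42 over 5809 genes of at least 20 CPM, 78% of which were positive. Against Kit and Cd34 barcodes it was 15 of 15 (median 1.45, beside 31.1% positive among all genes), and against monocyte barcodes 10 of 15 (49.5% among all genes). Protein folding genes of the endoplasmic reticulum were positive for 20, 20 and 19 of 20 genes. Basophil and mast cell markers were positive for 4 of 4 genes against each neighbour (medians 2.32, 1.95 and 1.06), and their part in these counts was not tested. Calr, the calreticulin gene, had 999 CPM in promyelocytes and 126, 409 and 292 in the neighbours.

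Later granule genes were the mirror image against Camp and Ngp-rich barcodes, with 0 of 21 positive and a median log2 ratio of -3.56. Lcn2, the lipocalin gene, had 74.9 CPM against 8434 there, and Ltf, the lactoferrin gene, 26.2 against 3916. Cebpe, however, was already present at 84 CPM, against 405 in the next stage and 2.68 in Kit and Cd34 barcodes. Among these populations Gfi1 was highest in promyelocytes, with 27 CPM against 12.6, 5 and 1.84. The 998 barcodes past the S100 limit had more of it, 70.5 CPM when pooled over libraries. Irf8 had 166 CPM, between 12.8 in Camp and Ngp-rich and 451 in monocyte barcodes. Promyelocytes also had more Myb than Camp and Ngp-rich and monocyte barcodes (213 CPM against 48.8 and 42.1). Kit was at 71.6 CPM, against 157 in the Kit and Cd34 barcodes, which were selected for having it.

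Growth-related genes differed by neighbour. Against Camp and Ngp-rich barcodes, 18 of 18 ribosome biogenesis genes were positive (median 1.58), 23 of 24 S phase genes (0.68) and 15 of 24 G2/M genes (0.07), beside 78% of all genes (0.42). Against Kit and Cd34 barcodes it was 0 of 19, 7 of 24 and 4 of 24, beside 31.1% of all genes. Against monocyte barcodes it was 18 of 18, 24 of 24 and 2 of 24, beside 49.5% of all genes. Class II genes of antigen presentation were lower, with 0 of 7 positive against Kit and Cd34 barcodes (median -3.28) and Cd74, the invariant chain gene, at 21.3 CPM against 914. Against monocyte barcodes it was also 0 of 7 (median -3.08), and against Camp and Ngp-rich barcodes 2 of 3 (0.69).

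**Figure D2:**
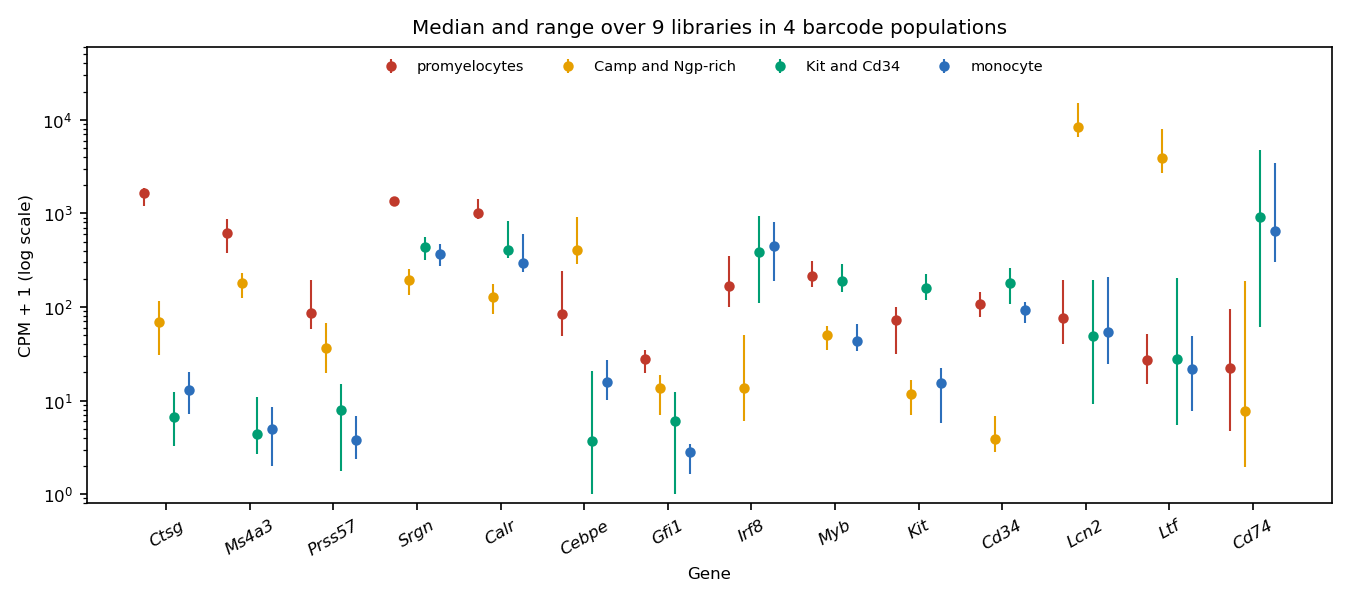
CPM plus 1 (vertical axis, log scale) of 14 genes (horizontal axis) in 4 barcode populations. Points are medians and bars the lowest and highest of 9 libraries; Ctsg is at 1637 CPM in promyelocytes and at most 68.6 in the median of a neighbour.

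The first comparison between samples was the number of promyelocytes. As a share of all passing barcodes they made up 2.41, 4.17, 1.89, 2.03 and 2.01% in the E16.5 libraries and 5.29, 4.04, 4.28 and 3.09% in libraries A to D. The shared library stood above the other 4 at E16.5 and overlapped P3. The mean was 4.18% ± 0.903 (SD, n = 4) at P3 and 2.50% ± 0.951 (SD, n = 5) at E16.5, a difference of 1.68 percentage points (exact permutation test, two-sided, p = 0.0397, adjusted over 4 share tests p = 0.0952). The adjusted value missed 0.05.

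The direction depended on the denominator. Among barcodes with under 10% haemoglobin UMIs, promyelocytes were 7.39% ± 1.15 (SD, n = 4) at P3 and 17.7% ± 3.97 (SD, n = 5) at E16.5, a difference of -10.3 points (exact permutation test, two-sided, p = 0.0159, not adjusted). This limit also removed promyelocytes, more of them at E16.5. It kept 337 of 456, 531 of 859, 243 of 548, 244 of 372 and 305 of 532 in the E16.5 libraries. In libraries A to D it kept 992 of 1138, 663 of 710, 585 of 643 and 463 of 527. Of the granulocytic barcodes, that is promyelocytes, Camp and Ngp-rich barcodes and those past the S100 limit, promyelocytes made up 25.7, 28.8, 21, 20.8 and 25.2% at E16.5 and 19.1, 17.9, 18.6 and 21.6% at P3. The groups overlapped through library D. The difference was -5.0 points (exact permutation test, two-sided, p = 0.0476, adjusted p = 0.0952) and shrank to -1.31 when the gate was set at 0.5% of UMIs (p = 0.492, same test).

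At E16.5 the 2 homozygous libraries had 2.02% ± 0.00984 (SD, n = 2) of passing barcodes as promyelocytes and the other 3 had 2.82% ± 1.19 (SD, n = 3). The difference of -0.801 points was within the spread of the second group (exact permutation test, two-sided, p = 0.7, smallest possible 0.1). As a share of granulocytic barcodes it was -2.18 points (exact permutation test, two-sided, p = 0.4, smallest possible 0.1). Neither test could reach 0.05 in this design.

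**Figure D3:**
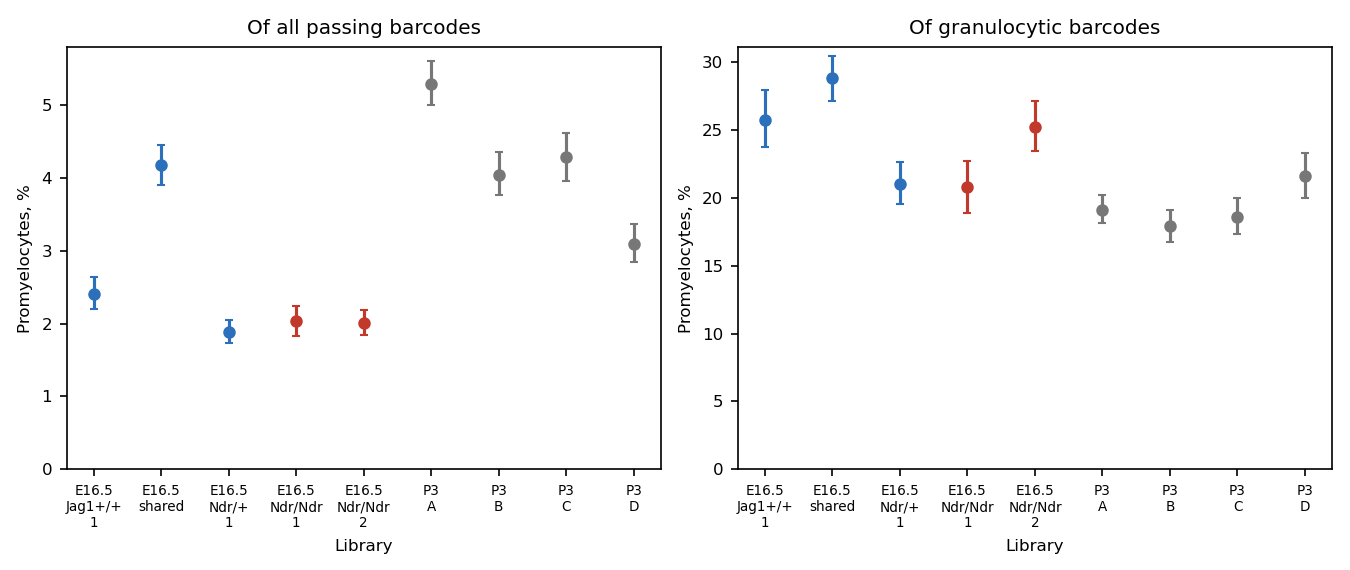
Promyelocytes as a percentage of all passing barcodes (left) and of granulocytic barcodes (right) in each of the 9 libraries. Bars are 95% exact binomial intervals, which cover counting error only; blue marks E16.5 libraries not labelled homozygous, red the homozygous ones and grey P3, where 4.17% in the shared library exceeds the 4.04 and 3.09% of libraries B and D.

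Gene levels were next compared between the stages, with 4 P3 libraries against 5 of E16.5. Of 11278 genes tested, 2817 (25%) were higher and 2739 (24.3%) lower at P3, 49.3% in all (edgeR quasi-likelihood test on summed UMI counts, Benjamini-Hochberg adjusted p under 0.05). With so many genes called, a list is read against that share. Stage cannot be told apart from the digestion, the 10x software version or the gene list. A change can also reflect another mix of cells within the gate as well as another RNA content per cell.

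Of the 15 primary granule genes outside the gate, 9 rose and 1 fell (66.7% called, median log2 change 0.43 beside 0.01 over all genes). Prss57 had 63.1, 72.9, 85.2, 57.8 and 69.3 CPM at E16.5 and 151, 192, 190 and 182 at P3. Every P3 library stood above every E16.5 one, and the log2 change was 1.28 (SE 0.153, adjusted p = 6e-05). Cst7 (85.3 to 182 CPM, log2 change 1.03) and the lysosomal enzyme genes Hexa (70.7 to 153, 1.04), Man2b1 (0.68) and Gusb (0.54) rose without overlap as well. Cd63, a granule membrane protein, rose by 0.61 on the log2 scale and Calr by 0.33.

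The rise did not extend to every member. Ctsg had a mean of 1424 CPM ± 238 (SD, n = 5) at E16.5 and 1682 ± 152 (SD, n = 4) at P3, a log2 change of 0.15 (SE 0.171, adjusted p = 0.484). Ms4a3 had 0.43 (adjusted p = 0.0681) although its groups did not overlap (378 to 622 CPM and 654 to 865). Plac8, a small cysteine-rich protein gene of myeloid progenitors, was the 1 member that fell, from 2172 CPM ± 164 (SD, n = 5) to 1540 ± 95.8 (SD, n = 4), a log2 change of -0.57. Among barcodes with the gate genes at 0.5% of UMIs, 6 rose and 1 fell, which is 46.7% beside 46.1% of all genes at that gate, a share near the background. Cd63 (0.36), Calr (0.06) and Igfbp4 (0.33) were no longer called.

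Of 20 later granule genes, 13 rose and 1 fell (70% called, median 0.79). Free RNA in the droplets was gauged from barcodes dominated by haemoglobin. Lcn2 had 50 CPM at E16.5 and 158 at P3 in promyelocytes and 45.2 and 155 in the haemoglobin-rich barcodes, and Ltf had 21 and 38.6 against 24.9 and 69.1. Per barcode, Lcn2 had 0.893 and 2.40 UMIs in promyelocytes against 0.378 and 0.677, and both genes had more UMIs per barcode in promyelocytes in 9 of 9 libraries. The part of free RNA in these increases was not tested. Haptoglobin (Hp) had 192, 189, 262, 214 and 230 CPM at E16.5 and 533, 579, 577 and 498 at P3, against means of 10.5 and 50.2 in haemoglobin-rich barcodes. Its log2 change was 1.24 (SE 0.157, adjusted p = 8.7e-05), with no overlap.

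The peptidoglycan recognition protein gene Pglyrp1 (102 to 249 CPM, log2 change 1.21) and the ficolin gene Fcnb (119 to 244, 0.94) also rose, at higher CPM than in haemoglobin-rich barcodes in 9 of 9 libraries, Fcnb with an overlap through library A at 134 CPM and without a call at the 0.5% gate (0.64, adjusted p = 0.0629). Genes of the oxidase that makes superoxide rose together: Cyba from 443 to 982 CPM (1.07), Ncf1 from 77.8 to 138 (0.77) and Ncf4 from 100 to 299 (1.50). In haemoglobin-rich barcodes Ncf4 had 67.9 and 156 CPM and Cyba 20.1 and 79.2. Olfm4, known as a marker of a neutrophil subset, fell. It had 50.9, 85.2, 52.0, 36.6 and 90.4 CPM at E16.5 and 17.1, 19.2, 14.9 and 20.6 at P3, a log2 change of -1.88 (SE 0.245, adjusted p = 1e-04), and 23.9 and 9.84 CPM in haemoglobin-rich barcodes. The part of free RNA in these changes was not tested.

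Of 35 transcription factor genes, 7 rose and 15 fell (62.9% called beside 49.3% of all genes, median -0.31). At the 0.5% gate 7 rose and 8 fell of 33. That was 45.5% beside 46.1% of all genes at that gate, a share near the background. Spi1, which encodes PU.1, had 143, 116, 139, 161 and 113 CPM at E16.5 and 351, 382, 452 and 368 at P3, a log2 change of 1.46 (SE 0.143, adjusted p = 1.9e-05). Cebpe, needed for secondary granules, had 48.4, 55.8, 84.0, 51.9 and 76.7 CPM and then 118, 244, 163 and 186, a change of 1.40 (SE 0.245, adjusted p = 0.00069). Irf8 rose too, from 135 CPM ± 29.1 (SD, n = 5) to 286 ± 49.8 (SD, n = 4). Rara, the retinoic acid receptor alpha gene, rose by 0.93 on the log2 scale from a low level of 6.62 CPM. Of Spi1, Cebpe, Irf8 and Rara, the 0.5% gate left all 4 called, Cebpe at 0.99.

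The factors that fell included Cebpb, which drives granulocyte production under stress. Its values were 450, 383, 428, 517 and 350 CPM at E16.5 and 261, 80.3, 145 and 95 at P3. Library A lay between the groups but below every E16.5 library, and the change was -1.62 (SE 0.306, adjusted p = 0.0011). Myc fell by 1.35 on the log2 scale (113 to 46.1 CPM), Runx1 by 0.93 (166 to 90.9), Fli1 by 0.87 (83.2 to 47) and Myb by 0.57 (268 to 189). The stem cell genes Hlf (-1.37) and Meis1 (-0.93) fell in the full gate, but had -0.44 (adjusted p = 0.0738) and -0.45 (adjusted p = 0.215) where the gate genes reached 0.5%. Cebpa and Gfi1 had log2 changes of 0.12 and 0.11 and were not called (adjusted p = 0.704 and 0.553).

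Receptors split, with 8 of 36 higher and 12 lower (55.6% called, beside 49.3% of all genes). At the 0.5% gate 6 were higher and 11 lower of 35 (48.6%, beside 46.1% of all genes at that gate). As a list they were thus called about as often as all genes. Il3ra, the interleukin 3 receptor alpha chain, rose from 20.4 to 49 CPM (log2 change 1.21), Fcgr1, the high-affinity IgG receptor, from 8.58 to 23.2 (1.36), and Csf2rb from 44.0 to 86.6 CPM across E16.5 libraries to 79.2 to 132 across P3 libraries (0.56, with overlap). Csf1r (0.65) and Ly6c2 (0.86), both also monocyte genes, rose with overlapping groups, and Ly6c2 was not called at the 0.5% gate (0.61, adjusted p = 0.0764). Among the receptors that fell was Itga4, from 155 to 225 CPM across E16.5 libraries to 109 to 150 (-0.74). Cxcr4, which holds cells in the marrow, fell from 125 to 55.7 (-1.21), and Cd93 from 70.7 to 42.7 (-0.79).

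Kit (-0.70), Cd34 (-0.59) and Flt3 (-0.92) fell in the full gate, and with the gate genes at 0.5% had -0.62, -0.32 and -0.25, none of them called (adjusted p = 0.0611, 0.124 and 0.67). Adgrg1, an adhesion receptor gene of early haematopoietic cells, fell from 75.5, 67.2, 52.5, 81.4 and 76.1 CPM to 40.7, 29.1, 32.7 and 29.1 (log2 change -1.15, SE 0.138, adjusted p = 6.2e-05). Its groups did not overlap, and the 0.5% gate gave the same -1.15.

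Notch genes, the pathway the Jag1 allele touches, gave 5 of 23 higher and 12 lower (73.9% called, median -0.47). At the 0.5% gate it was 6 and 7 of 19 (68.4%, median -0.23). Notch2 had 31.8, 48.1, 37.9, 36.0 and 39.7 CPM at E16.5 and 13.5, 15.7, 12.1 and 12.0 at P3, a log2 change of -1.59 (SE 0.143, adjusted p = 1.2e-05). Adam10, which encodes a protease that cuts Notch receptors, fell from 139 to 69.8 CPM (-1.06), with 99.3 and 59.5 CPM in haemoglobin-rich barcodes. The coactivator gene Maml1 fell from 13.2 to 4.28 CPM (-1.69). Notch1 fell less, from 33.5 to 25.3 CPM (-0.47), with overlap and without a call at the 0.5% gate (-0.23, adjusted p = 0.3). Psen2 (0.74), a catalytic subunit of gamma-secretase, Dtx4 (0.71) and Hes6 (0.66) rose.

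Genes of the fetal programme fell, 10 of 13, with 1 higher (84.6% called, median -1.87). Igf2bp1, an RNA-binding protein of fetal cells, had 18.1, 20.7, 7.71, 5.02 and 22.8 CPM at E16.5 and 0.973, 0.908, 0 and 2.47 at P3, a log2 change of -3.97 (SE 0.594, adjusted p = 0.00025). The imprinted growth genes Cdkn1c (18.5 to 2.02 CPM, -3.19), Dlk1 (30.8 to 3.42, -3.04) and Mest (11.8 to 2.16, -2.63) fell as well, Mest with overlap through library D. Haemoglobin-rich barcodes had 4.11 and 0.793 CPM of Igf2bp1, 12 and 2.95 of Cdkn1c, 11.6 and 1.30 of Dlk1 and 4.73 and 1.73 of Mest at the same stages. In CPM, Cdkn1c and Mest were higher in promyelocytes than there in 5 of 9 libraries, and in UMIs per barcode in 9 of 9. The part of free RNA was not tested.

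Interferon-stimulated genes rose in 13 of 23 cases and fell in 1 (60.9% called, median 1.12), and among barcodes at the 0.5% gate 16 of 20 rose and 1 fell (85% called, beside 46.1% of all genes at that gate). Ifi27l2a had 24.0, 16.8, 30.8, 66.5 and 20.5 CPM at E16.5 and 91.3, 122, 269 and 140 at P3 (log2 change 2.22, SE 0.407, adjusted p = 0.00091). Within E16.5, Jag1Ndr/Ndr replicate 1 was the highest, and within P3 library C. The same 2 libraries were highest for Irf7 (9.80 and 45.8 CPM) and Zbp1 (4.66 and 25), whose log2 changes were 2.29 and 2.56. Irf7 was higher still in haemoglobin-rich barcodes at P3 (72.7 CPM against 21.9), as were some other genes of the list. Ifi27l2a (26 against 156), Zbp1 (1.29 against 12.5) and Oas1a (1.40 against 9.54) were lower there. The part of RNA from such barcodes in these rises was not tested. Oas1a (2.39) was under 20 CPM in every library.

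Class II genes rose in 5 of 6 cases, beside 25% of all genes. At the 0.5% gate 6 of 6 rose (median 2.08), beside 2279 of 10247 genes. Among barcodes with under 10% haemoglobin UMIs 3 of 6 rose, beside 2600 of 10930 genes. Cd74 had 10.6 CPM at E16.5 and 68.1 at P3 (log2 change 2.62). Haemoglobin-rich barcodes had 1.61 and 73.8 CPM of it, and the part of free RNA was not tested. H2-DMb1 rose from 11.6 to 31.4 CPM (1.40), H2-Ab1 from 4.96 to 15 (1.49, overlapping) and H2-Eb1 from 2.23 to 9.30 (1.95, overlapping).

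Heat shock and immediate early genes fell in 15 of 20 cases and rose in 1 (80% called, median -1.22), the same counts at the 0.5% gate. Nr4a1, an early response receptor gene, had 103, 78.0, 68.5, 103 and 86.9 CPM at E16.5 and 10.2, 7.92, 5.61 and 6.60 at P3, a log2 change of -3.55 (SE 0.187, adjusted p = 2.1e-07). Zfp36 (241 to 22.3 CPM, -3.47), Hspa1a (16.1 to 1.76, -3.35) and Atf3 (24.0 to 3.11, -3.14) fell without overlap. Such genes are known to respond to tissue digestion, which differed between the stages, and the part of that difference was not tested. The chemokine gene Ccl4 fell with them, from 241 to 13.2 CPM (-4.24).

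Cell cycle genes gave 6 higher and 1 lower of 24 for S phase and 4 higher and 7 lower of 24 for G2/M, beside 49.3% of all genes called in either direction. Mcm7 (134 to 234 CPM, 0.73) and Mcm3 (123 to 162 CPM across E16.5 libraries, 201 to 262 at P3, 0.62), which license replication, rose, whereas the mitotic genes Cks2 (489 to 187, -1.47) and Cdk1 (184 to 99.6, -0.95) and the chromatin gene Hmgb2 (-0.81) fell. In haemoglobin-rich barcodes Cks2 had 257 and 73.7 CPM and Cdk1 64.2 and 35. Of 20 ribosome biogenesis genes, 9 rose and 1 fell, the latter being Npm1 (2618 to 3131 CPM across E16.5 libraries, 1526 to 2093 at P3, -0.68), with Nhp2 (0.74) among those that rose. Of 20 folding genes of the endoplasmic reticulum, 4 rose and 2 fell (30%), and 1 and 7 at the 0.5% gate, with Creld2 higher (0.71, and 0.36 with an adjusted p of 0.066 at the 0.5% gate) and Sdf2l1 (-0.62) and Pdia4 (-0.55) lower. In glycolysis 6 rose and 2 fell of 16, and Pkm (255 to 599 CPM, 1.16) and Gpi1 (273 to 643, 1.16) rose without overlap.

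Markers of other cells moved with the stage, and their part in the results above was not tested. Of the erythroid markers 0 of 9 rose and 7 fell, and their summed level was 86100 to 155000 CPM at E16.5 and 16800 to 34800 at P3. Of the hepatocyte markers 9 of 10 fell (1350 to 5300 and 165 to 673 CPM summed). Monocyte markers summed to 1000 to 1640 CPM and then 1840 to 2260, with 5 of 11 higher and 2 lower, and macrophage markers to 77.9 to 199 and 175 to 326, with 5 of 9 higher. All 4 megakaryocyte markers tested rose (20.3 to 85 CPM summed, then 28.2 to 1680), but 1 of them was called at the 0.5% gate and 0 without libraries A and B. T and NK markers summed to 104 to 178 CPM and then 211 to 286, with 1 of 3 tested higher. Of that list, Nkg7 alone had 134 and 231 CPM, and 1.56 and 2.98 in haemoglobin-rich barcodes. Within the promyelocytes Nkg7 went with the gate genes, from 46.2 CPM in the lowest bin to 444 in the top one (9 of 9 libraries). The sum therefore cannot be read as T and NK cells. B lineage markers summed to 175 to 346 and then 264 to 460, with 4 of 10 higher and 4 lower. The B cell genes Igkc (4.77 to 106 CPM) and Ms4a1 (0.297 to 12.9) rose beside the class II genes described above, with 5.69 and 163 CPM of Igkc and 0.406 and 20.7 of Ms4a1 in haemoglobin-rich barcodes. No marker of these 7 lists was at 0 in all libraries of a stage. The metallothionein gene Mt2 fell from 316 to 19.6 CPM (log2 change -4.04), and had 878 CPM at E16.5 and 18.2 at P3 in haemoglobin-rich barcodes.

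Some large shifts lay outside these lists. Atp6v0c had 2.18 CPM at E16.5 and 759 at P3 and Timm23 3.17 and 189, and Camp and Ngp-rich barcodes showed nearly the same (2.23 to 701 and 1.33 to 68 CPM). Ptp4a1 went from 88.9 to 1.11 CPM and Sssca1 from 50 to 0.534. Sssca1 and Ptp4a1 overlap exons of genes listed at P3 only. Of the tested genes, 58 overlap a gene listed at 1 stage only, and 29 of those were called, which is near the 49.3% of all genes.

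**Figure D4:**
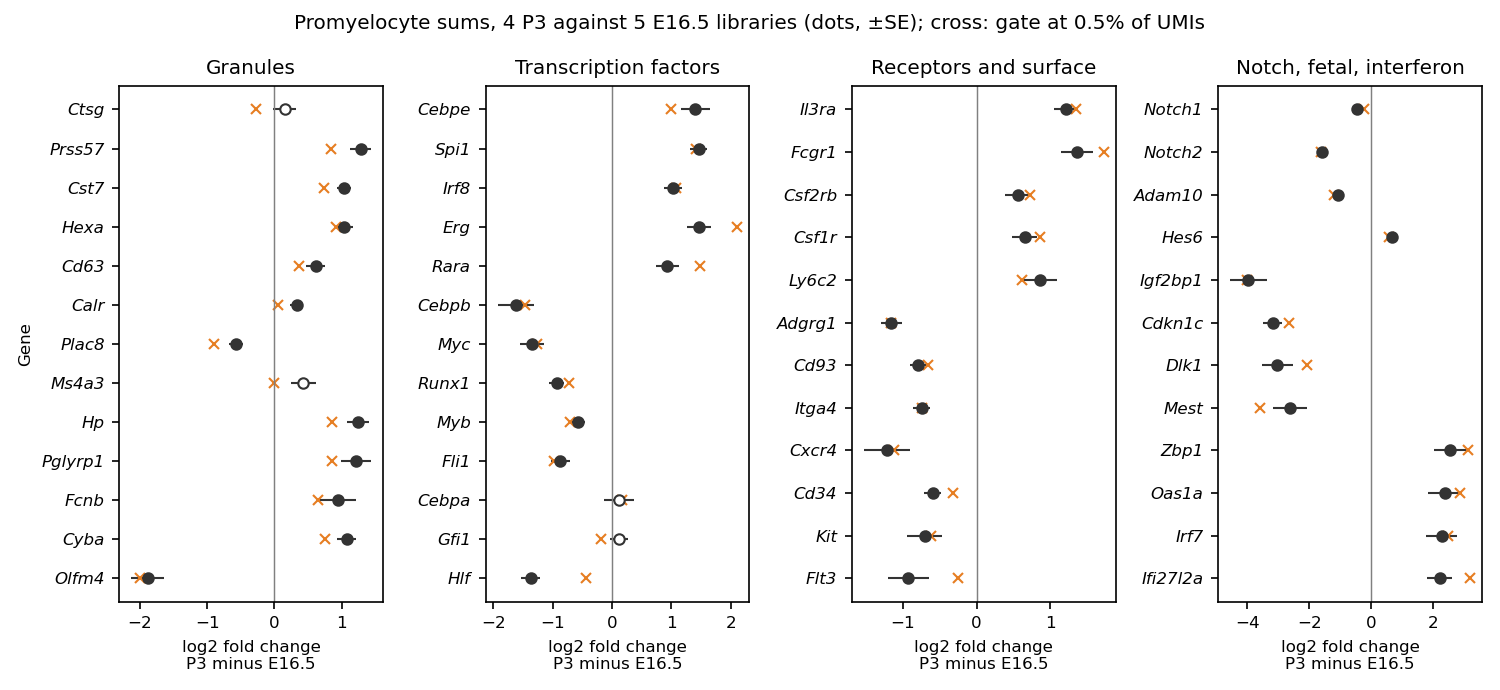
Log2 fold change of P3 over E16.5 (horizontal axis) for 50 genes in the promyelocytes, in 4 panels (vertical axis). Dots with SE bars are the values for all promyelocytes (filled where called at an adjusted p under 0.05, open where not), and crosses those with the gate genes at 0.5% of UMIs; Ctsg is open at 0.15 with its cross at -0.28, and Spi1 has 1.46 and 1.41.

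Whether these stage changes were stronger or weaker in promyelocytes than in the next stage was tested in 1 fit with a term per library, over the promyelocytes and the Camp and Ngp-rich barcodes of the same libraries. The stage change differed for 1156 of 12017 genes (9.62%), more positive in promyelocytes for 365 (3.04%) and more negative for 791 (6.58%). That split was not stable, since 74.1% of the calls were positive at the 0.5% gate and 66.7% without Jag1Ndr/+ replicate 1, against 31.6% in the full set, while the median over all genes moved from -0.08 to 0.06 in both. The genes described next were called in all 11 alternatives.

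Irf8 rose in promyelocytes from 135 to 286 CPM and from 7.29 to 33.7 in Camp and Ngp-rich barcodes, so its relative rise was smaller in promyelocytes (difference of log2 changes -1.05, adjusted p = 0.0067). The same held for Csf1r (52.1 to 84.8 against 10.1 to 40.4 CPM, -1.26) and for the interferon genes Oas1a (-2.73) and Ifi27l2a (31.7 to 156 against 8.70 to 163 CPM, -1.90). Cd93 fell in promyelocytes and had 6.20 and 7.26 CPM in the next stage (difference -0.91), and Nr4a1 fell further in promyelocytes (-1.76). Ly6c2 was the exception, with a larger relative rise in promyelocytes (339 to 642 against 241 to 288 CPM, difference 0.76). In haemoglobin-rich barcodes Irf8 had 2.48 and 12.2 CPM at E16.5 and P3, Csf1r 3.12 and 18, Ifi27l2a 2.52 and 26 and Cd93 2.53 and 4.85. Oas1a had 0.0751 and 1.40 there, Nr4a1 2.13 and 0.579 and Ly6c2 3.81 and 7.18. The part of free RNA in these differences was not tested.

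In primary granule genes the stage change differed between the populations for 2 of 15, and in Notch genes for 1 of 26, beside 9.62% of all genes. Of the 35 transcription factors, 11 were more negative and 0 more positive. Interferon genes gave 11 of 24 and heat shock and early response genes 12 of 20 more negative. G2/M genes gave 10 of 24 more negative, while later granule genes gave 5 of 22 more positive and 0 more negative. Markers of other cells also differed. Macrophage markers gave 8 of 9, B lineage markers 6 of 10 and monocyte markers 5 of 11 more negative, with 2 monocyte markers more positive. The part of such cells in these differences was not tested. All of these directions carry the instability just described.

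The last comparison asked whether the homozygous allele changed promyelocytes at E16.5, with 2 homozygous libraries against 3 others. Of 11927 genes tested, 1 was called (0.00838%, edgeR quasi-likelihood test, adjusted p under 0.05), and 191 had an unadjusted p under 0.05. DESeq2 called 1 as well.

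The gene was Adgrg5 (ENSMUSG00000061577, chr8:94923694-94943280, plus strand), which encodes an adhesion G protein-coupled receptor. It had 5.70, 6.27 and 5.90 CPM in Jag1+/+ replicate 1, the shared library and Jag1Ndr/+ replicate 1, from 58, 73 and 49 UMIs. In Jag1Ndr/Ndr replicates 1 and 2 it had 0.359 and 0.215 CPM, from 3 and 2 UMIs. The groups were far apart, with a log2 change of -4.32 (SE 0.439, adjusted p = 0.0354). Over the pooled UMIs the ratio was 0.0473 (exact counting interval at 95%, 0.0152 to 0.113, 5 UMIs against 180), which is 21.1-fold lower.

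The call was not robust to every setting. It held in 7 of 14 alternatives, whose adjusted p ranged from 6.9e-12 to 1, and was lost without Jag1Ndr/+ replicate 1 (0.486), Jag1Ndr/Ndr replicate 1 (0.305) or Jag1Ndr/Ndr replicate 2 (0.0924) and at the 0.5% gate, while the log2 change stayed between -4.84 and -4.02. It was also lost with the replicate number as a block (0.13), among barcodes under 10% haemoglobin (0.122) and with Xist status as a covariate (0.0821). Earlier results of these libraries had shown Adgrg5 low in monocytes of homozygous embryos, so its low level here is not independent evidence.

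Other populations showed where the gene is found. In monocyte barcodes, Adgrg5 had 12 UMIs in the homozygous and 165 in the other libraries (ratio 0.11, interval 0.0556 to 0.197). In Camp and Ngp-rich barcodes it had 4 and 12 (0.533, interval 0.125 to 1.76), an interval that holds a ratio of 1. These intervals pool UMIs over libraries and cover counting error only. Whether the ratio differs between the populations was not tested. Within the promyelocytes Adgrg5 was highest in the lowest bin of gate genes, at 9.98 CPM, and at 1.40 in the top bin. At P3 it had 8.02, 4.70, 13.7 and 21.6 CPM in libraries A to D, and library C, which carries only the homozygous label, was not low. Adgrg1, on the same chromosome, had 81.4 and 76.1 CPM in the homozygous and 75.5, 67.2 and 52.5 in the other E16.5 libraries, without overlap, and was not called (log2 change 0.29, adjusted p = 1).

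**Figure D5:**
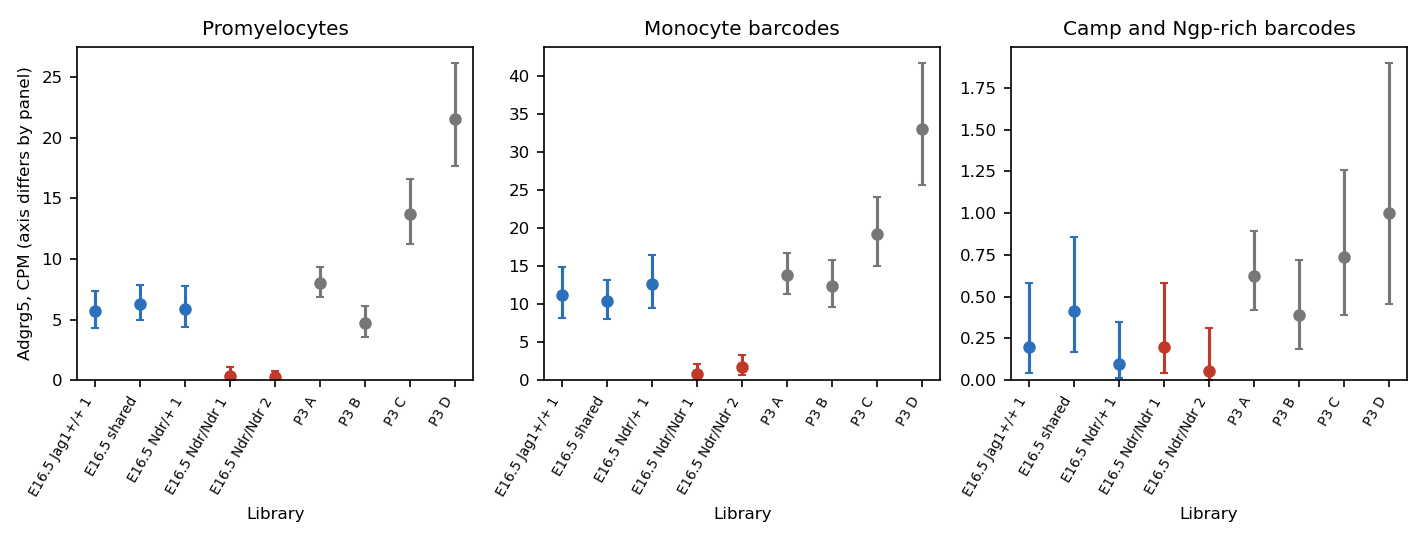
Adgrg5 in CPM (vertical axes, scaled separately) in promyelocytes, monocyte barcodes and Camp and Ngp-rich barcodes of the 9 libraries (horizontal axis). Bars are exact 95% counting intervals; the homozygous E16.5 libraries in red are at 0.359 and 0.215 CPM in promyelocytes, library C at 13.7.

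The lists were described by their counts. Primary granule genes had a positive change in 6 of 15 cases (median -0.05) and Notch genes in 12 of 24 (0.01), beside 5958 of 11927 genes overall. Interferon-stimulated genes were positive in 23 of 23 cases with a median of 0.63, 0 of them called and 7 with an unadjusted p under 0.05; with no filter on low counts 5 were called, beside 99 genes in all. Without Jag1Ndr/Ndr replicate 1 it was 9 of 23 with a median of -0.08, and without replicate 2 it was 24 of 24 with 1.25, so the shift rests on replicate 1. Hepatocyte markers were negative in 10 of 10 (median -1.03), with a summed level of 1690 to 1860 CPM in homozygous and 1350 to 5300 in the other promyelocytes. None of the 10 was called, with 4 at an unadjusted p under 0.05, while 8 were called with no filter on low counts and 4 without Jag1+/+ replicate 1. The median was -0.18 at the 0.5% gate and -0.70 without the shared library. The part of hepatocyte RNA in any gene's value was not tested.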

How the data were processed

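Whole mouse livers were profiled with droplet single-cell RNA sequencing, and the deposited matrices hold raw UMI counts per gene and barcode. Cell Ranger 2.1.1, R 4.1.2, Seurat and the build mm10 are named per the submitters' processing notes, while the matrix headers give software 3.0.2 at P3 and 3.1.0 at E16.5. The gene list held 31053 genes at E16.5 and 22597 at P3, so both were cut to the 22519 in common. The members and gene lists were chosen with earlier results of these data known.

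UMI counts of the selected barcodes were summed per library and tested with edgeR 4.0.16 (quasi-likelihood, TMM, R 4.3.3, Benjamini-Hochberg adjustment, threshold 0.05). Shares were compared with exact permutation tests over libraries. Each library is 1 individual per the labels, and p-values measure the spread between libraries. DESeq2 1.42.0, other gates, libraries left out and Scrublet calls (scanpy 1.11.5, doublets kept unless stated) were alternatives. The fit comparing promyelocytes with Camp and Ngp-rich barcodes, the set under 10% haemoglobin and the 20% haemoglobin limit for Kit and Cd34 barcodes were chosen after seeing the data. Counting intervals cover counting error only. The gene test was also run on simulated data, with an outcome that is not reported here.

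Members of the marker, granule, transcription factor, receptor and Notch lists could be named, as could up to 4 called members of any other list with the largest change. Up to 12 called genes per direction with groups apart and at least 50 CPM were added, of which 1 is not reported here. The second P3 matrices labelled Jag1Ndr/+ and Jag1Ndr/Ndr were not used here because of shared barcodes.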

Additional observations from a re-analysis of the deposited data

Results flagged for a closer look

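Among 190 groups of 4 or 5 libraries, 12 held a library far from the others, while chance marks about 1 in 20 groups. At E16.5 the shared library had 4.17% promyelocytes among passing barcodes, beside 1.89 to 2.41% in the others. Jag1Ndr/Ndr replicate 1 stood above the rest for Zbp1 (4.66 CPM), Irf7 (9.80 CPM) and Ifi27l2a (66.5 CPM), and Jag1Ndr/+ replicate 1 below it for Cd93 (49.8 CPM) and Psen2 (11.8 CPM). At P3, library A was low for H2-Ab1 (4.13 CPM) and Hes6 (56.1 CPM) and high for Dlk1 (7.32 CPM). Library B was high for Erg (12.9 CPM), library C for Ncf4 (423 CPM) and library D for Mest (4.12 CPM).

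The stage change differed between promyelocytes and Camp and Ngp-rich barcodes for 25 of 89 named genes (edgeR, test of the difference of log2 changes), and was more negative in promyelocytes for 20 of them. Of the 25, Irf8, Csf1r, Ly6c2, Cd93, Oas1a, Ifi27l2a and Nr4a1 were called in all 11 alternatives, and the others lost the call in at least 1. Those called least often were Meis1 (1 of 11), Erg, Cdk1 and Ccl4 (2 of 11), Ncf4, Myb and Atf3 (4 of 11) and Lyz2 (5 of 11). At the 0.5% gate Erg had 0.18, Hlf -0.15 and Meis1 -0.28. The differences for myeloid and granule genes were 0.63 for Lyz2, 0.55 for Hp, 0.36 for Ncf4, 0.88 for Lcn2 and 0.76 for Ly6c2. Transcription factors had -1.05 (Irf8), -0.65 (Erg), -0.72 (Runx1), -0.43 (Myb), -1.25 (Hlf) and -0.90 (Meis1), and receptors -1.26 (Csf1r), -0.91 (Cd93), -1.08 (Cd34) and -1.34 (Flt3). For Igf2bp1 it was -1.81, for Cdkn1c -1.60, for Oas1a -2.73, for Ifi27l2a -1.90 and for Cd74 -2.06. Early response and cycle genes had -1.76 (Nr4a1), -0.67 (Zfp36), -1.41 (Atf3) and -0.29 (Cdk1), and the chemokine gene Ccl4 -1.67.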

How the results depend on the processing

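The number of genes called between the stages was 4609 to 5667 over its alternatives, within 1.5 times of 5556, and 4884 to 5521 with 1 library left out. Of 85 named and called genes, 67 were called under every alternative, and of their 1530 alternative values 44 lost the call and 0 changed direction. Of the alternative values of named genes not called, 3 passed the threshold. Genes not called changed sign, Ctsg (-0.28), Ms4a3 (-0.01) and Gfi1 (-0.19) at the 0.5% gate, Gfi1 (-0.03) and Cebpa (-0.22) without libraries A and B, and Cebpa (-0.30) without library A, while Cebpa had 0.28 without library B. The cause was not tested. The genotype count of 1 was 99 with no filter on low counts, 0 at the 0.5% gate, 0 under 10% haemoglobin, 0 with Xist status as a covariate and 0 to 12 with 1 library left out (12 without Jag1+/+ replicate 1). At the 0.5% gate, 138 genes had an unadjusted p under 0.05. The count of differing stage changes, 1156, fell to 224 without libraries A and B and was 607 to 1162 with 1 library left out, lowest without library B, then 675 without library A. Erg turned to 0.18 at the 0.5% gate.

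The P3 share of passing barcodes exceeded that of E16.5 by 1.40 points without Scrublet calls, 1.19 without libraries A and B and 1.31 to 2.09 with 1 library left out. Under 10% haemoglobin it was -10.3. The P3 share of granulocytic barcodes differed by -3.87 (gate at 20 UMIs), -1.31 (0.5% gate), -2.47 (thinned to 1000 UMIs), -4.62 (no Scrublet calls), -4.20 (without libraries A and B) and -5.89 to -3.89 with 1 library left out. The genotype difference in that share was -4.41 to 0.0558 with 1 library left out, positive without Jag1Ndr/Ndr replicate 1.

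With the replicate number as a block, 5423 genes were called between the stages and 0 between genotypes. The numbers do not pair the libraries, since correlations of deviations were -0.193 to 0.182 over all pairs and did not follow the number. A comparison of the stages with Xist as a covariate was not run, because Xist is not in the P3 gene list. Genes near the count floor, such as Adgrg5 with 2 and 3 UMIs, are limited by depth.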
